A study of Mus musculus with 38 samples.

Results

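The late change with time in culture was followed in untreated organ of Corti, by comparing control explants kept for 72 h with control explants kept for 24 h. The comparison holds 7 of the 38 bead arrays of the series, chosen from the sample names alone: OC_24h_CTRL replicates 1 to 4 and OC_72h_CTRL replicates 2 to 4. Explants of the cochlea came from C57BL/6 mice 3 to 5 days after birth, were grown on fibronectin in supplemented medium, and at the end of culture were separated by dissection into a spiral ganglion (SG) fraction and an organ of Corti (OC) fraction, the rest of the explant. The OC explants of this comparison received no treatment, whereas others of the series were exposed to kainate (KA), a glutamate receptor agonist. The 5 kainate-treated OC arrays of the same times (OC_24h_KA, n = 2 and OC_72h_KA, n = 3) and the 5 control SG arrays (SG_24h_CTRL, n = 2 and SG_72h_CTRL, n = 3) were used for contrast.

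The organ of Corti is the sensory epithelium of the cochlea. It holds inner and outer hair cells, which turn vibration into receptor potentials through a mechanotransduction channel and release glutamate onto ganglion neurons at ribbon synapses, and the supporting cells around them. In the mouse it is still immature in the first days after birth: hair cells go on to acquire their adult channels and synaptic proteins, and Notch signalling between hair cells and supporting cells, which holds supporting cells in their fate, declines. The dissected fraction also holds non-sensory epithelium, connective tissue, vessels, nerve fibres and resident immune cells, so that in bulk RNA a change in the number of cells of one type and a change in RNA per cell cannot be told apart.

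The label of the tissue was checked against defining markers, and hair cell and supporting cell transcripts were present. Pou4f3, the hair cell transcription factor, read 9.87, 9.56, 9.78 and 9.34 in the 24 h arrays and 9.53, 9.93 and 9.49 in the 72 h arrays, on the log2 scale of normalized signal used for all levels below. Of the 19 hair cell markers with a probe, 14 were detected on all 7 arrays and 5 on none, among the latter Atoh1, Strc and Slc26a5. Detection here means a detection p under 0.01, the comparison of a probe with the array's control beads. Of the 26 supporting cell markers, 23 were detected on all 7 arrays. Neuron markers were detected on all 7 arrays in 12 of 28 cases and macrophage and leukocyte markers in 4 of 25.

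The arrays of the groups were close to each other, and 1 of them stood slightly apart. Between 11130 and 11782 probes were detected per array. Pearson r over all probes was 0.988 to 0.993 between 24 h arrays, 0.989 between 72 h arrays and 0.983 to 0.989 across times. Replicate 4 of the 24 h group had the lowest r with its group, 0.988 to 0.989 against 0.991 to 0.993 among the other three. Eif2s3y, a Y-linked gene, read 11.40 in that array and 11.58 in replicate 4 at 72 h, against 7.26 to 7.77 in the other 5 arrays, and over the series it lay between 10.94 and 11.67 in all 10 arrays numbered 4 and between 7.22 and 7.91 in the 28 others. The other sex-linked genes did not set these arrays apart in the same way. Uty read 8.07 to 8.51 and Kdm5d 8.01 to 9.63 over the 7 arrays. Xist read 10.16, 7.69, 7.40 and 7.58 at 24 h, where it was detected on 1 of 4 arrays. At 72 h Xist read 9.30, 8.86 and 9.23 and was detected on all 3 arrays (adjusted p of the change 0.796). Whether the sex of the explants differed between the 2 times was not tested. The arrays of 1 number also deviated together from their group means, so that replicate number was fitted as a block in a further model and its value is given where it moves a count. By the methods the arrays of a group came from different explants, but the labels do not tie arrays to animals. The p-values measure only the spread between arrays of a group, pooled over all groups of the series, SG and kainate arrays included. For a single gene this pooled spread can be smaller or larger than that of the 7 arrays.

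At 72 h, 208 of 25697 probes (0.809%) differed from 24 h at a Benjamini-Hochberg adjusted p under 0.05, 122 higher (0.475% of all probes) and 86 lower (0.335%). These are the calls meant by rose and fell below. With 1 probe per gene, 154 of 16593 genes changed (0.928%), 92 of them up (0.554%) and 62 down (0.374%). At least 2-fold changes numbered 25 up and 24 down. The 2 groups did not overlap in 200 of the 208 probes, against 9.14% of all probes (4.41% with 72 h higher and 4.73% with 72 h lower). The 208 were called on these same arrays, so their separation is no further support for the calls. An unadjusted p under 0.005 was reached by 590 probes (2.3%). The median difference over all probes was -0.0037 on the log2 scale. With replicate number as a block over all arrays, 407 probes changed (1.58%), 224 up and 183 down, and 207 of the 208 were among them. Without replicate 4 at 24 h the count was 121, and without replicate 3 at 72 h it was 87.

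**Figure D1:**
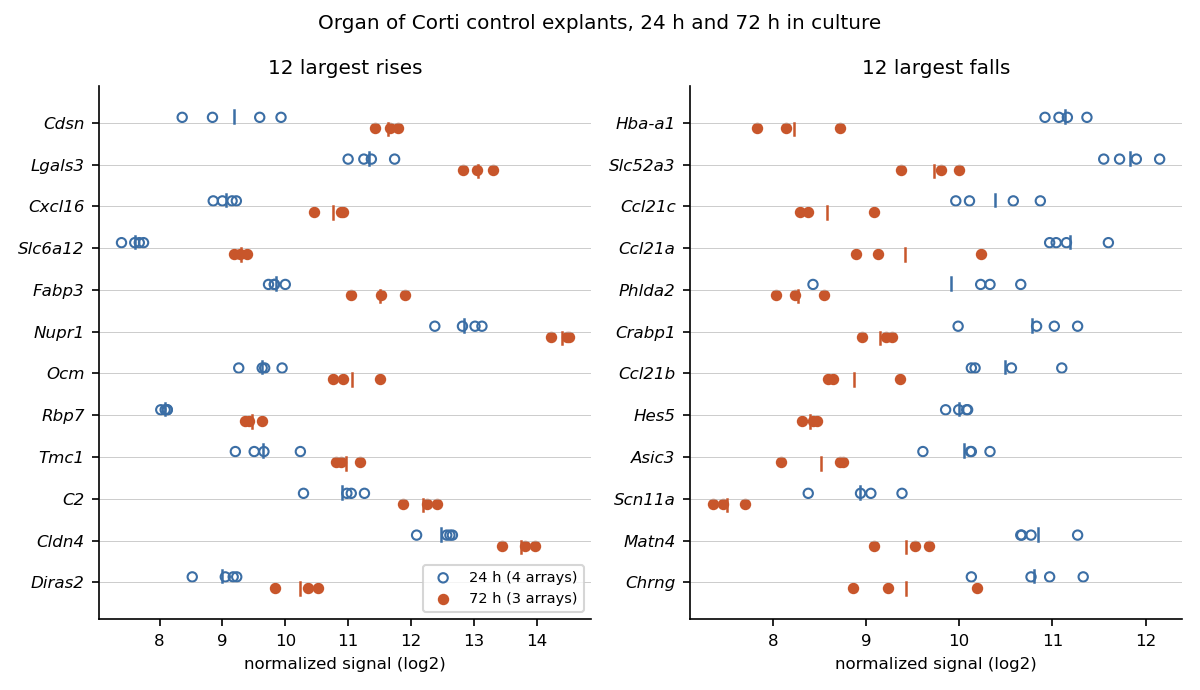
Normalized signal (log2, horizontal axis) of the 12 genes with the largest rises (left) and the 12 with the largest falls (right) among changed genes detected on every array of the higher group. Open circles are the 4 control OC arrays at 24 h, filled circles the 3 at 72 h, and short lines the group means. Hes5 at 72 h sits between 8.31 and 8.47, below all 24 h arrays, and Phlda2 and Chrng are the genes with overlapping groups.

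Among genes of hair cell function, 3 rose and none fell. Of the 19 hair cell markers 2 rose (10.5%, against 0.554% of all genes), and 11 differences were positive and 8 negative (median 0.01, against -0.0044 over all genes). The mean level of the list was 9.44 to 9.62 in the 24 h arrays and 9.67 to 9.76 in the 72 h arrays. With so small a median, the shift of this mean rests on a few members, Ocm most of all. For the 22 hair bundle genes, with 1 rise (4.55%), the mean level was 9.47 to 9.58 at 24 h and 9.67 to 9.72 at 72 h. Of 43 lists described here, the mean level at 72 h lay above every 24 h array in 10, these 2 included, and below in 4. Ocm, encoding oncomodulin, the calcium buffer of outer hair cells, read 9.95, 9.26, 9.67 and 9.63 at 24 h and 10.76, 11.50 and 10.92 at 72 h. All 72 h arrays lay above all 24 h arrays, a 2.70-fold rise (log2 difference 1.43 ± 0.18, SE, adjusted p = 2.53e-05).

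Tmc1, a pore-forming subunit of the mechanotransduction channel, read 9.66, 9.21, 10.24 and 9.51 at 24 h and 10.81, 11.19 and 10.88 at 72 h. Its groups were separate and its rise was 2.47-fold (log2 difference 1.31 ± 0.20, SE, adjusted p = 0.000445). Tmc1 was the only one of 22 hair bundle and mechanotransduction genes to change. Tmc2, the subunit that precedes Tmc1 in immature hair cells, was not detected on any of the 7 arrays. Cabp2, a calcium-binding protein that modulates the calcium channels of the inner hair cell synapse, read 10.04, 9.75, 10.26 and 9.87 at 24 h and 10.86, 10.39 and 10.99 at 72 h, a 1.70-fold rise (log2 difference 0.77 ± 0.19, SE, adjusted p = 0.0424). It was the only changed gene of 19 in the ribbon and efferent synapse list.

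The other hair cell genes did not pass the test. Otof, the calcium sensor of vesicle release at the ribbon, was higher in each 72 h array (11.70 to 12.04 against 11.14 to 11.37), but with an adjusted p of 0.396. Kcna10 differed by 0.49 (adjusted p = 0.0857) and the bundle protein gene Grxcr2 by 0.64 (adjusted p = 0.0853). Myo7a, the motor of the hair bundle, differed by -0.26 ± 0.18 (SE), Pvalb by -0.11, Calb2 by 0.06 and Pou4f3 by 0.01 ± 0.24 (SE). The nicotinic subunits of the efferent synapse, Chrna9 and Chrna10, differed by -0.25 and -0.02. Grxcr2 was also higher in each 72 h array, whereas Myo7a and Chrna9 were lower in each. Groups were separate, in either direction, in 9.14% of all probes. The differences of the 19 markers thus ran from -0.26 for Myo7a to 1.43 for Ocm.

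Ocm and Tmc1 held under every array left out, with log2 differences of 1.211 to 1.584 and 1.157 to 1.502. Cabp2 held without 24 h replicate 3 and without 72 h replicate 3 but not without any of the other 5 arrays. The study draws array batch as a colour bar, in which 24 h replicates 1 and 2 share a batch with 72 h replicate 4, and replicate 3 of both times shares another. Within the first of these batches Ocm differed by 1.32 and Tmc1 by 1.45, and within the second by 1.83 and 0.95. At 5 h, in OC_5h_CTRL, Ocm read 8.93, 8.71 and 9.24 and Tmc1 9.12, 8.97 and 9.27. Both means at 5 h were therefore under those at 24 h (8.96 against 9.63 for Ocm, 9.12 against 9.65 for Tmc1). The step from 5 to 24 h shares the 24 h arrays with the step from 24 to 72 h.

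**Figure D2:**
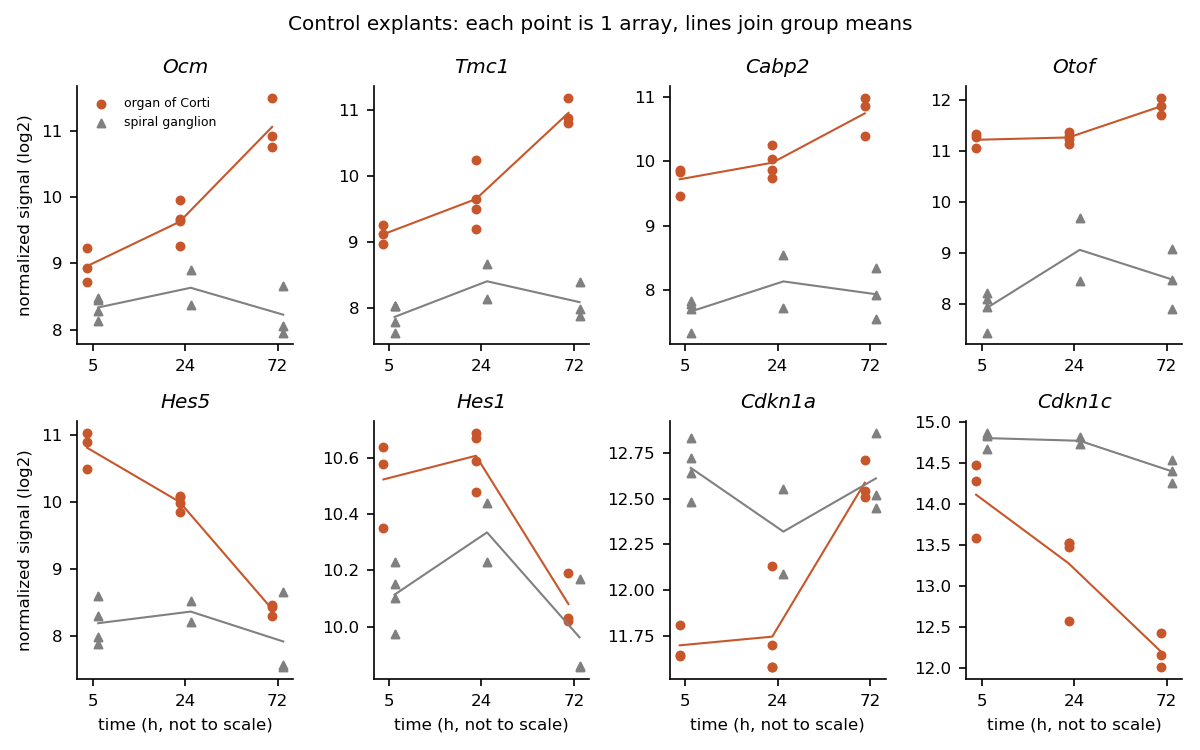
Normalized signal (log2, vertical axis, its range set per gene) of 8 genes in control OC (circles) and control SG (triangles) at 5, 24 and 72 h. Each point is 1 array and lines join group means. Every OC point of Ocm, Tmc1 and Cabp2 at 72 h lies above those at 24 h, while the SG means differ by -0.41, -0.32 and -0.20, and the OC mean of Hes5 goes from 10.8 at 5 h to 8.403 at 72 h.

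Among supporting cell and Notch genes, the 2 transcriptional targets Hes5 and Hes1 fell. No listed ligand or receptor passed the test, which in so few genes cannot be told from the 0.928% called over all genes. Hes5, a repressor that Notch induces in supporting cells, read 9.85, 9.99, 10.09 and 10.08 at 24 h and 8.43, 8.47 and 8.31 at 72 h. Spread within each group was small (SD 0.11 and 0.08), and the groups lay far apart, a 3.04-fold fall (log2 difference -1.60 ± 0.24, SE, adjusted p = 0.000358). A further Hes5 probe was detected on all 24 h arrays and on none at 72 h, and was at least 2.41-fold lower at 72 h (adjusted p = 1.98e-05). Leaving out each array in turn gave differences between -1.65 and -1.56, and both shared batches gave -1.62.

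Hes1, the related repressor expressed more widely, read 10.48, 10.59, 10.69 and 10.67 at 24 h and 10.19, 10.03 and 10.02 at 72 h, a 1.44-fold fall (log2 difference -0.53 ± 0.12, SE, adjusted p = 0.0158). The Hes1 call was lost without 24 h replicate 4 and without 72 h replicates 3 or 4, and over the 7 omissions its difference ran from -0.58 to -0.50. At 5 h the Hes1 mean was 10.53, near that of 10.61 at 24 h, whereas the Hes5 mean was 10.81 at 5 h, above every 24 h array.

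Notch acts through the DNA-binding protein RBPJ, and the Hes5 promoter is shown because Hes5 was the Notch target with the largest fall. The 250 bases before its start site lie at chr4:154960673-154960922, plus strand, in GRCm38.p6, and are given from RefSeq with the RBPJ motif GTGGGAA, searched on both strands (TTCCCAC), in capitals.
Hes5: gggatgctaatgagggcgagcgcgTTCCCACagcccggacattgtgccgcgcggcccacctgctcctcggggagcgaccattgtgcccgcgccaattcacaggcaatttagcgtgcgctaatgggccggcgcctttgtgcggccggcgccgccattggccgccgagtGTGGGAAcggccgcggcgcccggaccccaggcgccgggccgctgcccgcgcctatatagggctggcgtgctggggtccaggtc
The motif occurs 2 times, starting 226 and 83 bases before the start site, once on each strand. Of 32851 promoters of the same length, 1779 (5.42%) hold it at least once and 53 (0.161%) at least 2 times. The matches describe the sequence and were not tested for binding.

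Of the 34 Notch pathway genes measured, 2 fell (5.88%, against 0.374% of all genes) and none rose, with a median difference of -0.09. The other targets were lower without passing the test: Heyl differed by -0.32, Nrarp by -0.32, Hey2 by -0.22 and Hey1 by -0.15. The receptors Notch1 and Notch3 differed by -0.04 and -0.28 and the ligands Jag1 and Jag2 by -0.29 and -0.26. Outside the list, Dner, a Notch ligand of neural tissue named here after its values were seen, read 9.78 to 10.46 at 24 h and 9.01 to 9.66 at 72 h (log2 difference -0.82 ± 0.19, SE, adjusted p = 0.0222), and its call held under 4 of the 7 arrays left out. Other supporting cell markers showed no call: Sox2 differed by -0.12 ± 0.39 (SE), Prox1 by -0.11, Lfng by 0.12 and Fgfr3, the receptor of pillar and Deiters cells, by 0.32 ± 0.16 (SE). Rorb differed by 0.48 (adjusted p = 0.191) and passed with the replicate block (adjusted p = 0.0249). The calcium-binding protein gene S100b, listed with Schwann cells and glia and also known from supporting cells, rose 1.79-fold (adjusted p = 0.0268) from 7.68 to 8.36 at 24 h, where it was detected on 1 of 4 arrays, to 8.64 to 9.00 at 72 h, and its call held under 2 of the 7 arrays left out.

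A pair of inhibitors of cyclin-dependent kinases moved in opposite directions. Cdkn1a, encoding p21, read 12.13, 11.58, 11.70 and 11.58 at 24 h and 12.54, 12.71 and 12.51 at 72 h, a 1.79-fold rise (log2 difference 0.84 ± 0.17, SE, adjusted p = 0.00645). All 3 of its probes rose, and the call was lost without 1 of the 7 arrays. Cdkn1c, encoding p57, read 12.58, 13.52, 13.48 and 13.53 at 24 h and 12.16, 12.01 and 12.43 at 72 h, a 2.11-fold fall (log2 difference -1.08 ± 0.20, SE, adjusted p = 0.00318). Replicate 1 at 24 h lay apart from the other three, and without it the difference was -1.31. Cdkn1b, the p27 gene of supporting cells, differed by 0.10.

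None of 40 cell cycle genes passed the test, although 33 of the 40 differences were negative and their median was -0.32, the lowest of the 43 lists. The mean level of the list was 8.95 to 9.28 in the 24 h arrays and 8.75 to 8.90 in the 72 h arrays, 1 of the 4 lists below every 24 h array. At 5 h the list mean was 8.76 to 8.93, near that at 72 h and below every 24 h array. The median stayed negative in every alternative, between -0.48 and -0.12. Cdk1 differed by -0.60, Mcm5 by -0.60 and Top2a by -0.32. With the replicate block 1 member, Uhrf1, passed (adjusted p = 0.0382). Outside the list, the histone genes H3c1, H3c4 and H3c6, whose transcripts accumulate in S phase and are near-identical in sequence so that their probes may share signal, fell by 0.84, 0.76 and 0.83 on the log2 scale. H3c1 was detected on all 24 h arrays and on 1 of 3 at 72 h. Lmnb1, the lamin B1 gene, fell by 0.67. These 4 genes were chosen after their values were seen.

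Imprinted growth genes gave the largest count of falls of any list. The lists differ in size and were chosen with earlier results of these data known. Of 28 measured genes of the IGF system and imprinted genes, 4 fell (14.3%, against 0.374% of all genes) and none rose, with a median of -0.07. The red blood cell list, with 1 fall among 7 genes, had the same share. Mest, a gene expressed from the paternal allele in growing tissue, read 12.45, 12.13, 11.90 and 11.64 at 24 h and 10.67, 10.68 and 10.84 at 72 h, a 2.46-fold fall (log2 difference -1.30 ± 0.29, SE, adjusted p = 0.0189). All 3 Mest probes fell. Phlda2, a growth-restraining gene beside Cdkn1c in the same imprinted cluster, read 10.33, 10.66, 8.43 and 10.23 at 24 h and 8.55, 8.03 and 8.24 at 72 h (log2 difference -1.64 ± 0.35, SE, adjusted p = 0.0122). Its groups overlapped, since replicate 3 at 24 h was as low as the 72 h arrays, and the call was lost without any 1 of 5 arrays.

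Ndn, encoding necdin, fell 1.33-fold (adjusted p = 0.0213), and Cdkn1c, described above, is the fourth gene. The Mest and Ndn calls held under 2 and 3 of the 7 arrays left out, and the Cdkn1c call under all 7. Other members were near 0: Igf2 differed by 0.02, Igf1r by 0.02, Igf2r by -0.01 and Gnas by -0.07, while Dlk1 differed by -0.91 with an adjusted p of 0.59.

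Several genes of immune and lysosomal function were among the largest rises. Lgals3, encoding galectin-3, read 11.74, 11.37, 11.00 and 11.25 at 24 h and 13.05, 13.31 and 12.83 at 72 h, a 3.30-fold rise (log2 difference 1.72 ± 0.29, SE, adjusted p = 0.00098). Cxcl16, a membrane-bound chemokine, read 9.00, 9.22, 8.85 and 9.15 at 24 h and 10.89, 10.92 and 10.46 at 72 h, a 3.25-fold rise (log2 difference 1.70 ± 0.29, SE, adjusted p = 0.00121). The complement component gene C2 rose 2.45-fold (adjusted p = 0.00379), from 10.29 to 11.26 at 24 h to 11.88 to 12.41 at 72 h. These 3 calls held without each array.

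Further genes, chosen after their values were seen, also rose. Ctsh, the lysosomal protease cathepsin H, rose 2.06-fold (24 h 10.01 to 10.49, 72 h 11.31 to 11.45, adjusted p = 0.00098), and the pattern receptor gene Tlr2 rose 1.49-fold (adjusted p = 0.0015). Lgmn, the protease legumain, rose 1.59-fold and Gm2a, the GM2 ganglioside activator, 1.44-fold. The apolipoprotein gene Apoc1 rose 2.08-fold with an adjusted p of 0.0499, the last of the 208 probes in order of adjusted p.

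The immune and lysosomal lists as wholes had at most 1 call each, where 0.928% of all genes changed and 0.554% rose. In lists of this size 1 call or none cannot be told from that share. Of 46 chemokines, cytokines and NF-kB targets 1 rose (2.17%), of 15 complement genes 1 rose (6.67%) and of 40 interferon-induced genes none changed. Of 27 lysosome and autophagy genes 1 rose (3.7%), Sqstm1, the autophagy adaptor p62 (1.49-fold, adjusted p = 0.0146). Ctsd (0.38, adjusted p = 0.0518) and Gabarapl1 (0.56, adjusted p = 0.0745) of the lysosome list passed with the replicate block (adjusted p = 0.0404 and 0.0145). Serping1 and Cd55 of the complement list, at differences of 0.99 and 0.58, also passed there (adjusted p = 0.00882 and 0.047).

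None of the 25 macrophage and leukocyte markers passed the test, with a median of 0.20 and 19 positive differences. Their mean level was 8.16 to 8.39 in the 24 h arrays and 8.09, 8.97 and 8.45 in replicates 2, 3 and 4 at 72 h. Ptprc, Itgam and Spi1 were detected on none of the 7 arrays and Adgre1 on 6. Replicate 3 at 72 h, the array with the highest marker level, also read highest of the 7 for Lgals3, Cxcl16, Lgmn, Gm2a and Apoc1, whereas C2, Ctsh and Tlr2 were highest in replicate 2, the 72 h array with the lowest marker level. Without 72 h replicate 3, Lgals3 differed by 1.60, Cxcl16 by 1.62, C2 by 1.25 and Ctsh by 1.05, each with an adjusted p under 0.05. Lgmn (adjusted p = 0.138), Gm2a (adjusted p = 0.143) and Apoc1 (adjusted p = 0.466) did not pass without that array. The part of macrophages in these rises was not tested.

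Ccl21 transcripts fell. Ccl21a, Ccl21b and Ccl21c encode near-identical forms of the chemokine of lymphatic vessels, so their probes may read the same transcripts. The Ccl21c probe read 10.58, 10.87, 10.11 and 9.96 at 24 h and 9.09, 8.37 and 8.29 at 72 h, a 3.48-fold fall (log2 difference -1.80 ± 0.35, SE, adjusted p = 0.00497). Falls of the Ccl21a and Ccl21b probes were 3.41-fold (adjusted p = 0.027) and 3.07-fold (adjusted p = 0.0115). Replicate 2 was the highest of the 72 h arrays for all 3 probes. The calls held under 6, 2 and 4 of the 7 arrays left out for Ccl21c, Ccl21a and Ccl21b.

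Genes of lipid and retinoid handling changed in both directions. Fabp3, a fatty acid binding protein, read 9.83, 9.73, 9.83 and 10.00 at 24 h and 11.91, 11.05 and 11.53 at 72 h, a 3.14-fold rise (log2 difference 1.65 ± 0.21, SE, adjusted p = 2.8e-05). Scd1, the stearoyl-CoA desaturase, rose 1.81-fold (adjusted p = 0.00409) and Hsd17b7, an enzyme of cholesterol synthesis, 1.78-fold (adjusted p = 0.0036). They were the only calls among 16 fatty acid synthesis and 18 cholesterol synthesis genes, of which 14 and 16 had positive differences (medians 0.16 and 0.19). Pltp, the phospholipid transfer protein, chosen after its values were seen, rose 2.23-fold (adjusted p = 0.00339).

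Rbp7, a cellular retinol-binding protein, read 8.12, 8.09, 8.12 and 8.02 at 24 h, where it was detected on 2 of 4 arrays, and 9.37, 9.62 and 9.42 at 72 h. Its rise was 2.60-fold (log2 difference 1.38 ± 0.13, SE) and had the smallest adjusted p of all probes, 2.55e-07. A second Rbp7 probe was detected on none of the 7 arrays. Crabp1, a cellular retinoic acid-binding protein, went the other way. It read 9.99, 10.83, 11.27 and 11.02 at 24 h and 9.22, 8.96 and 9.28 at 72 h, a 3.09-fold fall (log2 difference -1.63 ± 0.25, SE, adjusted p = 0.000481).

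Changes among transporters, junctions and epithelial genes came to at most 2 calls per list. Slc6a12, the betaine and GABA transporter, was not detected at 24 h (7.74, 7.68, 7.39 and 7.60) and was detected on all 72 h arrays (9.40, 9.28 and 9.19). With the lowest detected signal of each 24 h array as the floor, it was at least 2.31-fold higher at 72 h (adjusted p = 1.49e-06). Slc52a3, a riboflavin transporter, read 11.72, 11.90, 11.55 and 12.15 at 24 h and 9.80, 9.38 and 10.00 at 72 h, a 4.29-fold fall (log2 difference -2.10 ± 0.31, SE, adjusted p = 0.0003).

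Slc12a7, the potassium-chloride cotransporter KCC4 of supporting cells, rose 1.42-fold (adjusted p = 0.0204) and Gja1, encoding connexin 43, fell 1.47-fold (adjusted p = 0.0234). The cochlear connexin gene Gjb2 differed by 0.14. These were the 2 calls among 22 connexin and ion transport genes, and each held under 3 of the 7 arrays left out. Col9a2, a collagen IX chain of the tectorial membrane, fell 1.37-fold (adjusted p = 0.0148), the only call among 14 genes of the tectorial membrane and cochlear matrix.

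Cldn4, a tight junction claudin, rose 2.41-fold from 12.09 to 12.66 at 24 h to 13.45 to 13.98 at 72 h (adjusted p = 0.0103), alone among 35 keratin and epithelial junction genes, of which 25 had positive differences and whose mean level was 9.44 to 9.52 at 24 h and 9.59 to 9.77 at 72 h. Cdsn, encoding corneodesmosin, an adhesion protein of cornified epithelium, showed the largest rise of the 208 probes. It read 8.84, 9.93, 8.36 and 9.59 at 24 h and 11.80, 11.43 and 11.67 at 72 h, a 5.46-fold difference whose 24 h arrays were widely spread (log2 difference 2.45 ± 0.55, SE, adjusted p = 0.0188). The call held under 2 of the 7 arrays left out. A second Cdsn probe was detected on 1 of 4 arrays at 24 h and on all 3 at 72 h, so that its rise of 1.64 (adjusted p = 0.00065) starts from a 24 h mean near background. Lor, the cornified envelope gene loricrin, chosen after its values were seen, fell 1.76-fold (adjusted p = 0.0449), a call that was lost without any 1 of the 7 arrays.

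Other single rises were in genes of stress and regulation. Nupr1, a stress-induced nuclear protein gene, read 13.13, 12.82, 12.38 and 13.02 at 24 h and 14.51, 14.48 and 14.23 at 72 h, a 2.97-fold rise (adjusted p = 0.00989). Gpx2, a glutathione peroxidase, rose 1.88-fold (adjusted p = 0.00321), alone among 35 oxidative stress genes. Diras2, a small GTPase, rose 2.37-fold (adjusted p = 0.0122). The Nupr1, Gpx2 and Diras2 calls held under 5, 7 and 4 of the 7 arrays left out. Nr1d1, the circadian repressor REV-ERB alpha, rose 1.44-fold (adjusted p = 0.00688), the only call among 16 clock genes. Its relative Nr1d2 differed by 0.71 (adjusted p = 0.184) and the output gene Dbp by 0.52 (adjusted p = 0.061), and both passed with the replicate block (adjusted p = 0.0222 and 0.0112), as did Cry2 (0.33, adjusted p = 0.0129).

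Hba-a1, an alpha globin gene with a near-identical copy, read 11.16, 11.37, 11.07 and 10.92 at 24 h and 7.83, 8.72 and 8.15 at 72 h, a 7.45-fold fall and the largest of all (log2 difference -2.90 ± 0.29, SE, adjusted p = 4.23e-07). It had read 13.13, 12.26 and 12.55 at 5 h. The other 6 red blood cell genes, none of which was detected on all 7 arrays, showed no call.

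Asic3, an acid-sensing channel of sensory neurons, read 9.61, 10.13, 10.33 and 10.12 at 24 h and 8.75, 8.09 and 8.72 at 72 h, a 2.88-fold fall (log2 difference -1.53 ± 0.21, SE, adjusted p = 6.02e-05). Scn11a, the sodium channel Nav1.9 of sensory neurons, was detected on all 24 h arrays (8.94, 9.39, 8.38 and 9.05) and on none at 72 h (7.47, 7.35 and 7.70), and was at least 1.79-fold lower at 72 h (adjusted p = 0.0153), a call that held under 3 of the 7 arrays left out. The 28 neuron markers themselves gave no call and a median of -0.04, and Tubb3 was detected on 1 array of each time. Matn4, the matrix protein matrilin-4, fell 2.67-fold (24 h 10.66 to 11.27, 72 h 9.08 to 9.68, adjusted p = 0.0042), while a second probe detected on 5 of the 7 arrays differed by -0.39 (adjusted p = 0.664).

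A pair of subunits of the nicotinic receptor best known from muscle moved in opposite directions. Chrng, the fetal gamma subunit, read 10.77, 10.97, 10.13 and 11.33 at 24 h and 9.23, 8.86 and 10.19 at 72 h, with overlapping groups (2.59-fold fall, log2 difference -1.37 ± 0.35, SE, adjusted p = 0.0488). Chrna1, the alpha subunit, chosen after its values were seen, read 10.64, 10.33, 11.17 and 10.78 at 24 h and 11.20, 11.92 and 11.75 at 72 h, a 1.86-fold rise (adjusted p = 0.0289). A second Chrna1 probe rose by 0.98 (adjusted p = 0.0226). Each call held under 2 of the 7 arrays left out. None of the 11 skeletal muscle markers was detected on all arrays and none changed.

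Across 43 gene lists with 1025 measured genes, 23 genes were called, 14 up and 9 down. Lists without any call numbered 24, and over all genes 0.928% were called. Among the 28 genes of the BCL2 family and caspases, 55 of the mitochondrial respiratory chain, 22 ribosomal proteins and 15 fibroblast markers no gene changed, and list medians ran from -0.32 for the cell cycle to 0.23 for 4 sex-linked genes.

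**Figure D3:**
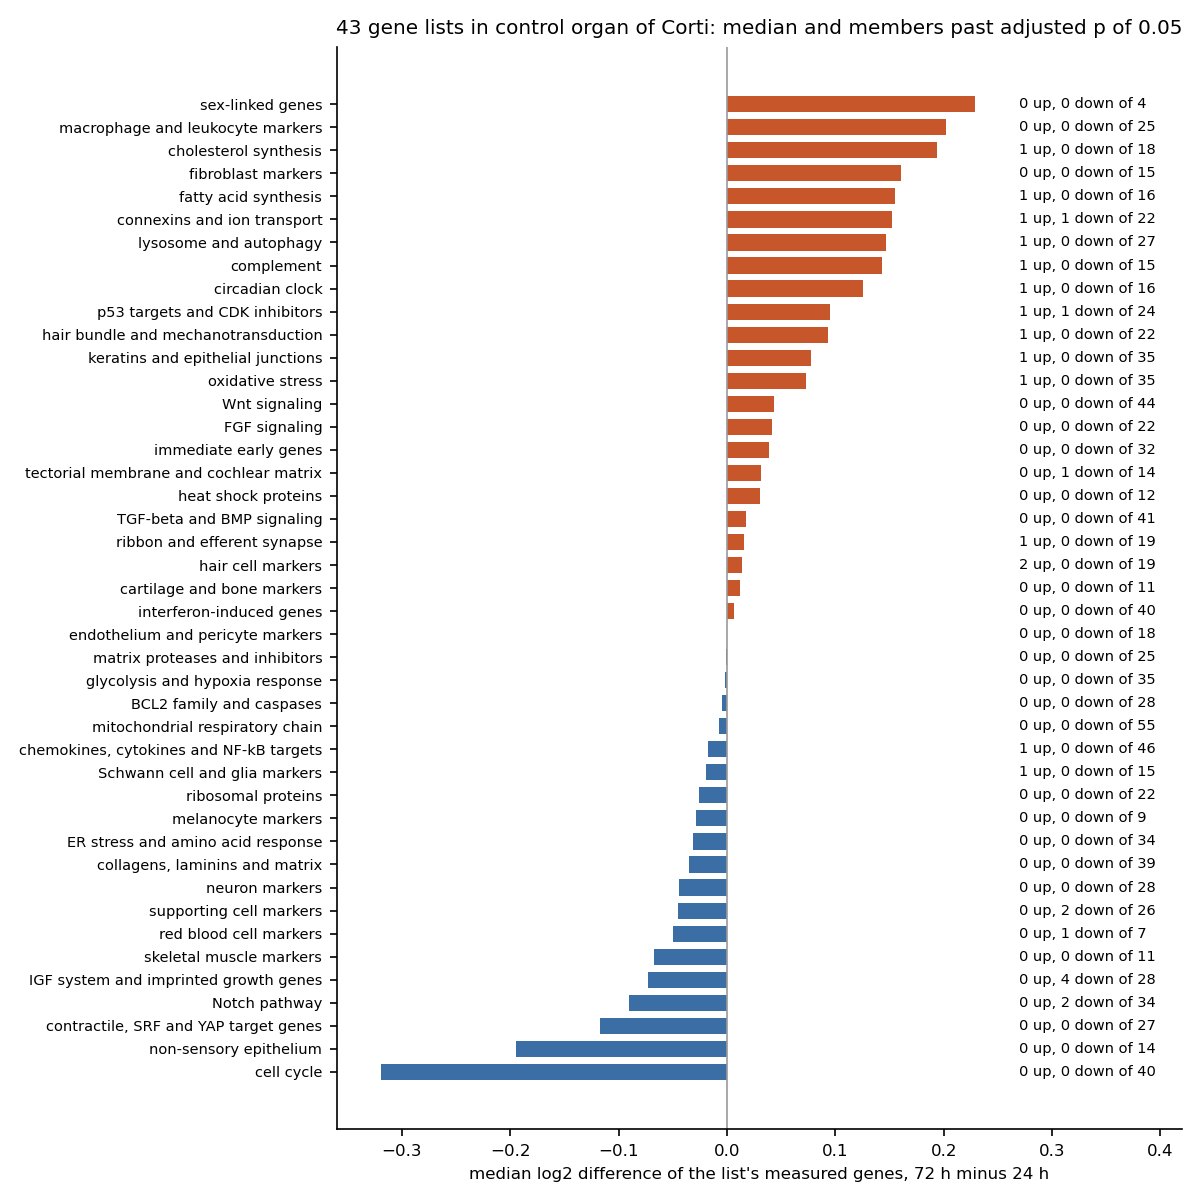
Median log2 difference (72 h minus 24 h, control OC) over the measured genes of each of 43 lists, as bars from 0, with the number of members up and down at an adjusted p under 0.05. The cell cycle list lies lowest at -0.32 with no member called, and the list of the IGF system and imprinted growth genes holds 4 falls of 28.

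The same step in kainate-treated OC, on 5 other arrays, was used to see which of these changes were found in treated tissue. There 127 probes (0.494%) changed, 81 up and 46 down. Of the 208 probes changed in control OC, 205 (98.6%) had the same sign in kainate-treated OC, against 56.4% of all probes. Probes changed in both numbered 67, which is 32.2% of the control list and 52.8% of the kainate list. Along the control direction, the median difference of the 208 probes was 0.73 in control and 0.64 in kainate-treated OC. The probes were chosen by their change in control OC, which tends to enlarge the control value, so these sizes are not like for like. The control and kainate arrays are different samples but lie partly in the same batches.

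By gene, Ocm rose by 1.64 in kainate-treated OC (adjusted p = 0.000211), from 9.54 and 9.45 at 24 h to 11.15, 11.23 and 11.02 at 72 h. Hes5 fell by 1.27 (adjusted p = 0.0308), from 9.64 and 10.46 to 8.60, 8.50 and 9.23. Crabp1 fell by 2.01 and Hba-a1 by 2.36, with adjusted p of 0.000632 and 0.000573. Tmc1 differed by 0.83 there with an adjusted p of 0.138, and Cabp2 by 0.45 with an adjusted p of 0.564.

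The difference between the 2 treatments in the step from 24 to 72 h passed for 0 of 25697 probes in limma, with 1007 at an unadjusted p under 0.05 and 77 at an unadjusted p under 0.005. Among the named genes changed in control OC, the largest such differences were those of Phlda2, which differed by -0.19 in kainate-treated OC and -1.64 in control (difference 1.45 ± 0.54, SE, adjusted p = 0.998), and Matn4, at -0.34 and -1.42 (difference 1.08 ± 0.42, SE, adjusted p = 0.998). A p that misses the threshold does not show that the treatments acted alike.

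**Figure D4:**
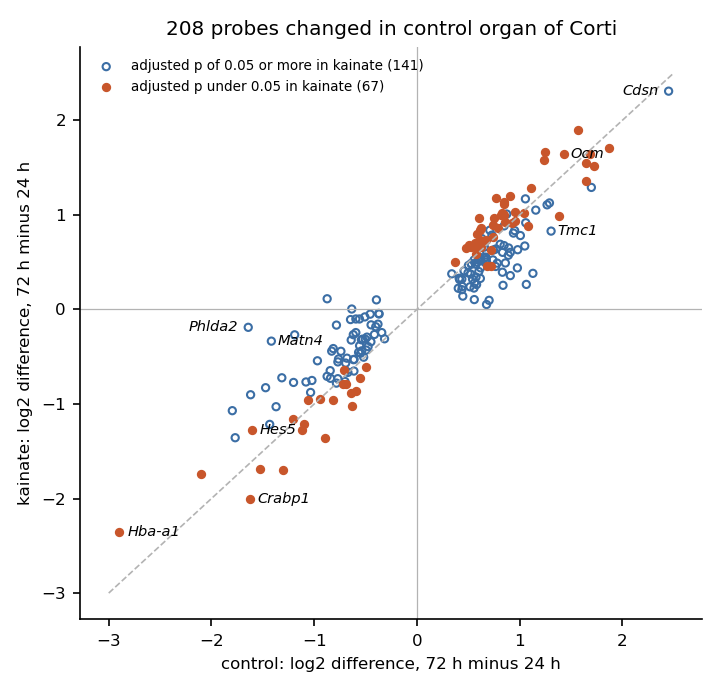
Log2 difference, 72 h minus 24 h, in control OC (horizontal axis) and in kainate-treated OC (vertical axis) for the 208 probes changed in control OC. Filled points (67) also passed an adjusted p of 0.05 in kainate-treated OC, open points did not, and the dashed line marks equal differences. Phlda2 and Matn4 lie far from the line, near 0 on the kainate axis.

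In control SG, 568 probes (2.21%) changed between 24 and 72 h. Of the 208 probes of OC, 26 also changed in SG in the same direction, and 176 (84.6%) had the same sign, against 55% of all probes. The median SG difference along the OC direction was 0.27, for probes chosen by their change in OC. The 2 tissues differed in their step for 44 probes (0.171%), and 10 of these were among the 208. By the methods each explant gave both fractions, but this fit did not pair them. With replicate number as a block over all arrays 145 probes differed. Without the block, the genes named by rule among the 44 were Ocm, Tmc1, Fabp3, Rbp7 and Slc6a12. Each of these rose in OC and showed no call in SG, with SG differences of -0.41, -0.32, -0.10, -0.07 and 0.13.

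The test of the difference gave -1.84 ± 0.28 (SE, adjusted p = 0.00403) for Ocm, -1.62 ± 0.31 (SE, adjusted p = 0.0165) for Tmc1, -1.75 ± 0.33 (SE, adjusted p = 0.0157) for Fabp3 and -1.45 ± 0.21 (SE, adjusted p = 0.00155) for Rbp7, each as SG minus OC. Levels limit what SG can show, since Slc6a12 and Rbp7 were detected on no control SG array at 24 or 72 h, and Ocm and Tmc1 on 2 of 2 at 24 h and 1 of 3 at 72 h. Fabp3 was detected on all of them. Arrdc4, an arrestin-domain gene chosen after its values were seen and detected on every control array of both tissues, rose by 1.08 ± 0.14 (SE) in OC and differed by -0.0015 in SG (adjusted p of the difference 0.03). Lrrtm1, a synaptic adhesion gene chosen in the same way, fell by 0.78 in OC and differed by 0.59 in SG (adjusted p of the difference 0.0204), and its OC call held under 2 of the 7 arrays left out and was lost with median centring. Hba-a1 fell in both tissues, with differences of -2.90 in OC and -3.28 in SG, as did Mest with -1.30 and -1.52, and the tests of the difference between tissues did not pass (adjusted p = 0.904 and 0.949).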

How the data were processed

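RNA of control and kainate-treated explants was hybridized to Illumina mouse bead arrays. The deposited raw intensities are linear signals, from which the authors made log2 values. Taking log2 of the raw signals and quantile normalizing all 38 arrays gave these deposited log2 values to within 4.99e-09, and the series matrix was identical. The deposited detection p-value compares a probe with control beads. Per the labels limma was used, its version not given in the sources used here. Genes were named through the platform annotation (23978 probes with 1 symbol, 0 with several, 1719 with none) and a RefSeq table of GRCm38.p6, and where several probes share a symbol the one brightest on average stands for the gene. Number of arrays limits the precision.

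A model with 1 mean per group, over all 38 arrays, was run in limma 3.58.1 under R 4.3.3 (residual degrees of freedom 26, prior 5.36), with Benjamini-Hochberg adjustment over 25697 probes. The fit was tested on simulated data. Genes named are the 12 largest rises and 12 largest falls detected on all arrays of the higher group, up to 4 changed members of each list by p, and fixed markers, among which Csf1r and Mki67 had no probe under this annotation. All other genes, including list members without a call, were named after their values were seen. Members and lists were chosen with earlier results of these data known. Replicate numbers pair the arrays: residuals of same-numbered 24 and 72 h arrays correlated at 0.249 to 0.321, against -0.244 to 0.0743 for others. Alternatives were other scalings, filters, blocks, array sets, thresholds, and each array left out.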

Additional observations from a re-analysis of the deposited data

Results flagged for a closer look

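Within the 24 h group, 4 genes of 49 examined had 1 array far from the rest, by the ratio of its gap to the range of the group. The limit was Dixon's critical value for 4 samples, which chance alone would pass in about 1 in 20 groups. Eif2s3y and Xist, both among the 4, were examined after their values were seen, so the count cannot be set against that rate. The ratio was 0.942 for Cdkn1c, with replicate 1 low, and 0.839 for Cldn4, with replicate 3 low. For Eif2s3y it was 0.894, with replicate 4 high at 11.40, and for Xist 0.895, with replicate 1 high at 10.16 and the others at 7.40 to 7.69.

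For 5 genes the step from 24 to 72 h differed between tissues by the test of the difference, here as SG minus OC. The values were -1.84 for Ocm, -1.75 for Fabp3, -1.62 for Tmc1, -1.56 for Slc6a12 and -1.45 for Rbp7 on the log2 scale. Each gene was higher at 72 h on 3 of 3 OC arrays than on every 24 h OC array. All 5 had been named for their large rise in OC, so this separation largely follows from that choice.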

How the results depend on the processing

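The 208 changed probes became 154 with median-centred raw signals, 160 with a background correction by detection p, and 259 of 11631 probes detected on at least 3 of the 7 arrays. Fitted on the 19 OC arrays alone, 192 probes changed, 150 of them among the 208. On the 7 arrays alone 239 changed, 136 of them among the 208, and 72 of the 208 lost their call. With replicate number as a block the count was 407 over all 38 arrays, a fit chosen after seeing the data, and 507 over the 7. It was 360 with batch as a fixed block, 318 with batch as a random block, 302 with array weights, 590 at an unadjusted p under 0.005 and 49 with a log2 difference of at least 1 besides. Leaving out 1 array gave 87 to 218, lowest without 72 h replicate 3, then 111 and 121 without 24 h replicates 2 and 4 and 112 without 72 h replicate 2. The probes called under all 7 omissions numbered 59.

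For kainate-treated OC, 127 became 75 with median centring (36 up and 39 down, against 81 and 46), 340 with the replicate block, 241 with batch fixed, 534 at an unadjusted p under 0.005, and 58 to 130 without 1 array, 58 being without KA 24 h replicate 4. For the tissue difference, 44 became 19 with median centring, 13 among detected probes, 145 with the replicate block, 85 with batch fixed, 464 at an unadjusted p under 0.005, and 14 to 140 without 1 array: 140 without SG 72 h replicate 3, 14 and 24 without SG 24 h replicates 3 and 2, 15 without SG 72 h replicate 2, and 17 and 22 without OC 72 h replicates 3 and 4. The treatment difference stayed at 0 except for 77 at an unadjusted p under 0.005.

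No named changed gene reversed direction under any alternative. Of 58 named changed genes, 41 kept their call with median centring and 49 with the background correction. On the 19 OC arrays alone 49 kept it, and on the 7 arrays alone 48. Those lost on the 7 arrays were Phlda2, Chrng, Ndn, Nr1d1, Chrna1, Lgmn, Gm2a, Apoc1, Lmnb1 and Dner. All 58 kept it with the replicate block over 38 arrays, and 57 with the block over the 7. Leaving out 1 array kept 33 to 55 of them.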
